A study of Schizosaccharomyces pombe with 12 samples.

Results

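Among the mRNAs measured in fission yeast after a change of medium were those of 7 genes for the use of arginine, urate, urea and glutamate: *car1*, *car2*, *uro1*, *SPBC23G7.13c*, *gdh1*, *gdh2* and *gln1*. They were chosen by name for their place in nitrogen metabolism, with earlier results of these data known. The deposited tables list 6988 features, and each of the 7 genes was followed at 0, 2, 4 and 8 h. Poly(A)+ RNA was sequenced in 12 libraries, 3 in each of 4 groups, all from the wild-type *h-* haploid strain AGP72 of *Schizosaccharomyces pombe*. By the paper's strain list, its strains carry the alleles *leu1-32*, *ura4-D18* and *his3-D1* and an *ade6* allele, in every group alike. The 0 h group was log-phase cells in YES, a rich medium of yeast extract with supplements. The 2, 4 and 8 h groups came from cells moved to ePMGT(+PO4), a defined medium with phosphate. By the published recipe it supplies glutamic acid, adenine, uracil, histidine, lysine, leucine, thiamine and a mix of amino acids that includes arginine, proline and glutamine, and it names neither urea nor uric acid. No YES culture was sampled at the later times, so the medium, the handling of the cells and the hours in culture cannot be told apart.

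Arginine can serve a cell as a source of nitrogen. Arginase splits it into ornithine and urea, ornithine transaminase passes the amino group of ornithine on to make glutamate, and the carbon chain that is left can be oxidised to glutamate as well. Urate, a product of purine breakdown, is opened by uricase and the steps that follow release urea, which urease splits into ammonium and carbon dioxide. Ammonium enters amino acids through the NADP-specific glutamate dehydrogenase and glutamine synthetase, while the NAD-dependent glutamate dehydrogenase takes glutamate apart again. In yeasts, genes for the use of such nitrogen sources are often under the control of GATA-type transcription factors.

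The values are the authors' average normalized read counts for each group (reads divided by a size factor per library). An average carries no spread between libraries, so whether a difference exceeded the replicate error could not be assessed here, and no test is given. Each later group is described by its ratio to the 0 h average, as a fold or as log2, and all 3 ratios share the same 0 h libraries. The word "2-fold" below means a ratio of 2 or more with an average of at least 100 in the higher group. For scale, each ratio is set beside the middle 95% of the same ratio over all features averaging 100 or more. That range ran from -0.39 to 0.76 (log2) at 2 h, from -0.48 to 0.80 at 4 h and from -0.68 to 1.01 at 8 h, with medians of -0.0015, -0.0048 and 0.023.

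The averages summed to 16948069, 16787779, 17640966 and 17017175 normalized reads at 0, 2, 4 and 8 h. The deleted gene *ura4* averaged 0 in every group, whereas *his3*, the gene of the *his3-D1* allele, averaged between 163 and 281. Among markers of M cells, the mating type of an *h-* strain, *mfm2* averaged between 730 and 1675 and *mam1* between 1080 and 1876, while *mfm1* and *mfm3* stayed under 54. Of the 3 M markers that averaged 100 or more, *mfm2* and *mam2* were 2.29-fold and 2.28-fold above 0 h at 8 h, and what part this had in the ratios below was not tested. Of the 3 genes listed for P cells, the pheromone gene *map2* averaged between 128 and 221, the receptor gene *map3* between 343 and 392 and the regulator *map1* between 298 and 473. All 3 thus averaged over 100 in every group of this *h-* strain, and how specific they are to P cells was not tested.

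Of the 7 genes, the number at 2-fold or more above 0 h was 3, 4 and 4 at 2, 4 and 8 h, and 0 were 2-fold or more below it at any time. Over all features with an average of 100 or more, 1.68%, 1.68% and 2.53% were 2-fold or more higher at 2, 4 and 8 h, and 0.13%, 0.224% and 0.781% were 2-fold or more lower. The ratio to 0 h was above 1 for 7, 6 and 5 of the genes at 2, 4 and 8 h (5 at 4 h with the groups scaled to an equal sum, where *gdh2* moved below 1). The median log2 ratio over all features averaging 100 or more was -0.0015, -0.0048 and 0.023, so about as many lay above 1 as below it. Whether the 7 genes differ from that share was not tested. The median log2 ratio of the 7 genes was 0.79, 1.09 and 1.30 at these times, but they had been picked with earlier results of these data known.

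By the 2-fold cut-off the genes followed 4 courses. *car1* and *uro1* were 2-fold or more above 0 h at all 3 times, a sustained course that 1.2% of the 5405 features averaging 100 or more in any group took. *car2* and *gdh1* were under 2-fold at 2 h and above it at 4 and 8 h. They count as late, a course defined as under 2-fold at 2 h and 2-fold or more at 8 h. Whatever their ratio at 4 h, 1.24% of features met that definition. *SPBC23G7.13c* was above 2-fold at 2 h and under it at 4 and 8 h. A transient course, 2-fold or more at 2 or 4 h and under it at 8 h, was taken by 0.426% of features. *SPBC23G7.13c* entered this comparison only through its 2 h average of 249, the same value that gave its course. The share thus says nothing more about this gene, and with a minimum average of 500, 0 of the 7 genes were transient. *gdh2* and *gln1* stayed under 2-fold throughout. Just inside the threshold was *gdh1* at 4 h, with 2.13-fold, and just outside it was *car2* at 2 h, with 1.73-fold. The sustained and late courses differ by the size of the ratio at 2 h and do not show that *car2* and *gdh1* began later. By 2 h *car1*, *car2* and *gdh1* had made 44.5, 49.6 and 41.0% of their gain. With a cut-off of 1.5-fold, 4 genes were sustained and 0 late.

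**Figure D1:**
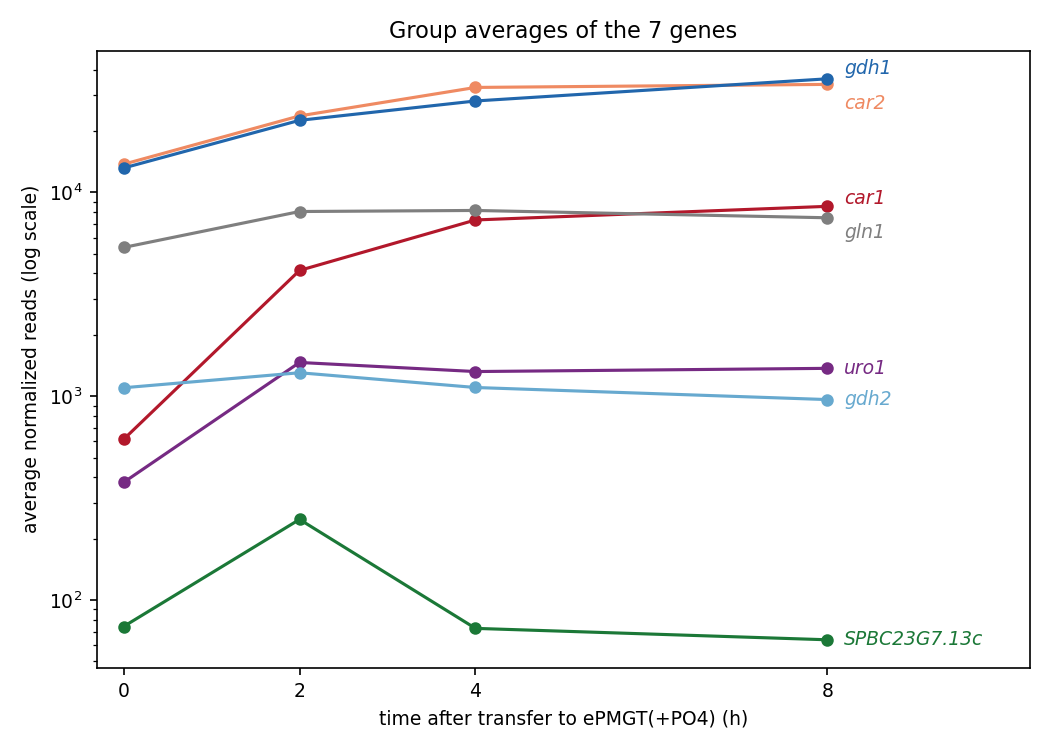
Authors' average normalized reads (log axis) of the 7 genes against hours after transfer, with each point the average of a group of libraries. *car1* runs up over more than a decade, from the level of *uro1* and *gdh2* to that of *gln1*, whereas *SPBC23G7.13c* has a peak at 2 h only.

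**Figure D2:**
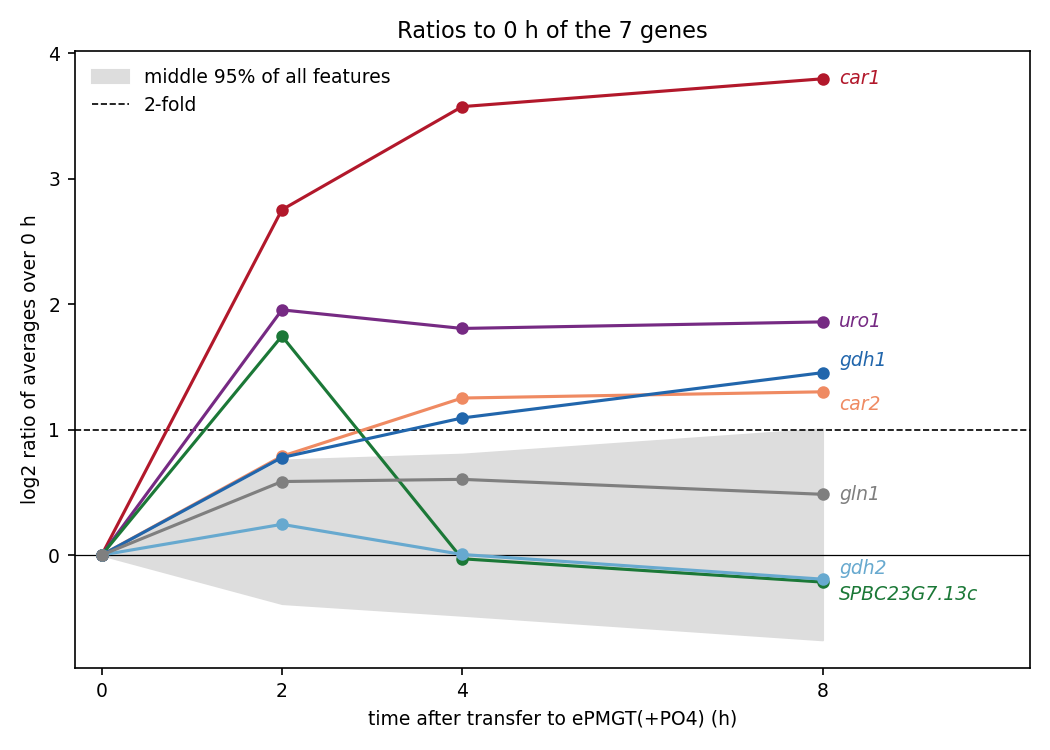
The log2 ratio of each gene's average to its 0 h average against hours after transfer. The grey band is the middle 95% of all features averaging 100 or more and the dashed line is 2-fold. *car1*, *uro1*, *car2* and *gdh1* lie above the band at all 3 later times, *car2* and *gdh1* only just so at 2 h. *SPBC23G7.13c* lies above it at 2 h only, and *gdh2* and *gln1* lie inside it at each time.

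*car1* (SPBP26C9.02c, on chromosome II) encodes the arginase Car1, the enzyme that opens the arginine route. It averaged 614 normalized reads at 0 h, 4140 at 2 h, 7323 at 4 h and 8540 at 8 h. These averages were 6.74-fold, 11.9-fold and 13.9-fold above 0 h (log2 2.75, 3.58 and 3.80), well outside the middle range of all features. Counted from the highest ratio down, *car1* was in places 20, 11 and 12 at 2, 4 and 8 h among the features compared. The level at 2 h held 44.5% of the gain that *car1* showed by 8 h. The step at 4 h over 2 h was 0.82 (log2), above the middle 95% of that step over all features (-0.41 to 0.36). The next step, 8 h over 4 h, was 0.22, inside its middle range of -0.39 to 0.38.

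A second gene, *aru1* (SPAC3H1.07), is also annotated as an arginase, and both coding sequences are 969 bases long without the stop codon. *aru1* averaged 13915, 19272, 23746 and 21252 normalized reads at 0, 2, 4 and 8 h, with log2 ratios of 0.47, 0.77 and 0.61, and thus stayed under 2-fold. Per kb of coding length, *car1* was at 634, 4273, 7557 and 8813 and *aru1* at 14360, 19888, 24506 and 21932 in the same order of times. *aru1* was the higher of the pair in all 4 groups, but *car1* made up 4.23, 17.7, 23.6 and 28.7% of their sum at 0, 2, 4 and 8 h. The sum of both was 1.61-fold, 2.14-fold and 2.05-fold that at 0 h, a much smaller ratio than that of *car1* alone.

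*car2* (SPBC21C3.08c, chromosome II), for the ornithine transaminase that acts on the product of arginase, averaged 13740 at 0 h, 23722 at 2 h, 32723 at 4 h and 33868 at 8 h. Its ratios were 1.73-fold, 2.38-fold and 2.46-fold (log2 0.79, 1.25 and 1.30). Each exceeded the upper bound of the middle 95% of features at its time, at 2 h by a margin of little size. By 2 h *car2* had made 49.6% of its gain. The 4 h over 2 h step of 0.46 was above the middle range of that step, and the 8 h over 4 h step was 0.05, so that the gene was near a plateau after 4 h.

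The list for the route from arginine to glutamate holds 6 genes, chosen by their annotated products, of which 1 was 2-fold or more above 0 h at 2 h and 2 at 4 and at 8 h. These were *car1* and *car2*, and 0 were 2-fold or more lower. *put2*, for the dehydrogenase that makes glutamate in the last step, averaged 16252, 21131, 25352 and 25151, with log2 ratios of 0.38, 0.64 and 0.63. The proline dehydrogenase gene *put1*, which brings proline into the same last step, had log2 ratios of 0.32, 0.26 and 0.44. *SPAPYUG7.05*, for a reductase that works toward proline, had log2 ratios between -0.08 and -0.07. The median log2 ratio of the list was 0.42, 0.71 and 0.62, with 5 of the 6 genes above 0 at each time. Per kb of coding length, *car2* was 1.06, 1.40, 1.61 and 1.68 times *put2* at 0, 2, 4 and 8 h.

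**Figure D3:**
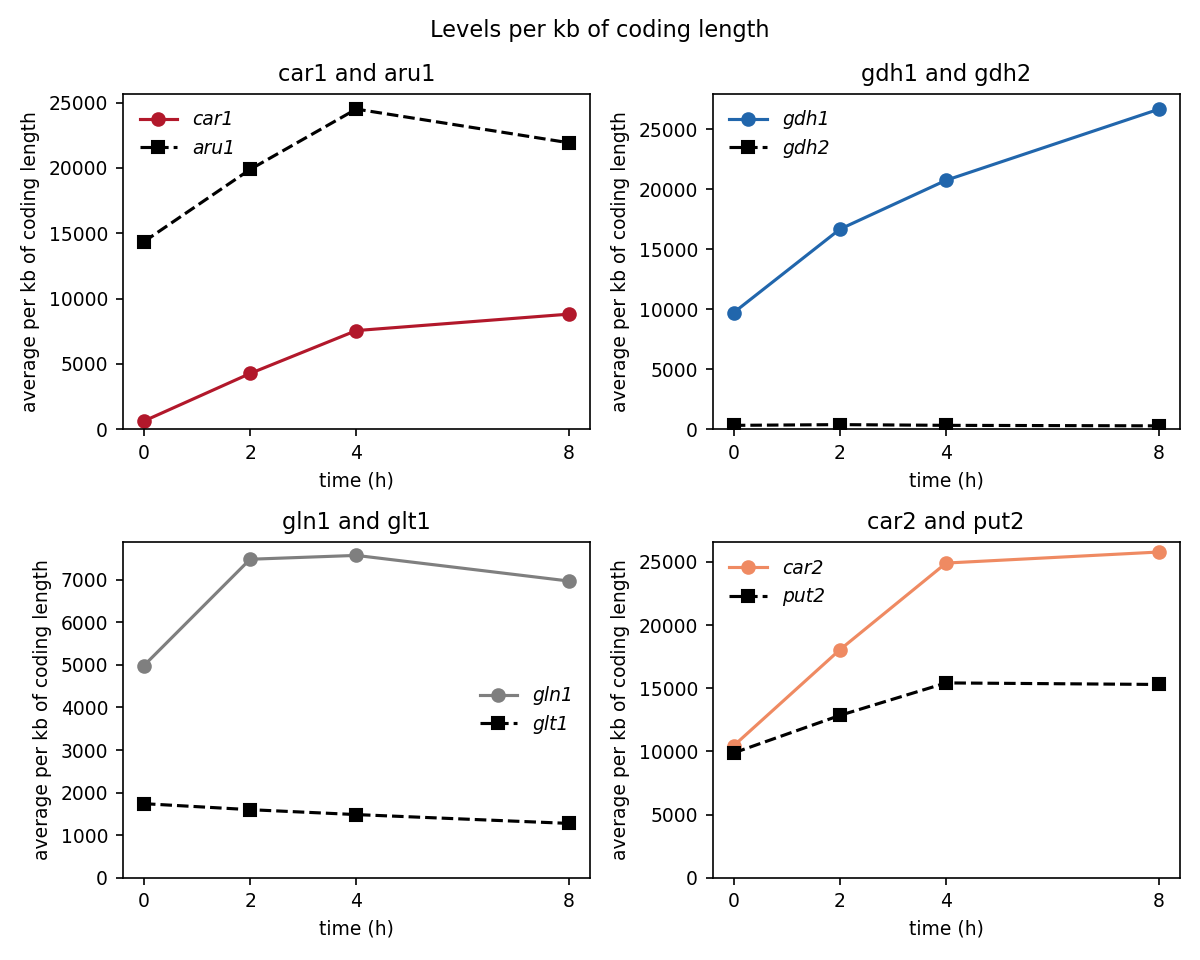
Averages per kb of coding length against hours after transfer for 4 pairs of genes, *car1* and *aru1*, *gdh1* and *gdh2*, *gln1* and *glt1*, and *car2* and *put2* (solid line the first of each pair, dashed line the second). *car1* stays below *aru1* in all 4 groups, while *gdh1* lies far above *gdh2*, which appears as a nearly flat line at the foot of its panel.

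The genes that build arginine had lower ratios than *car1* and *car2* at each time. Of the 8 in the arginine synthesis list, 0 were 2-fold or more away from 0 h at any time. The median log2 ratio of the list was 0.17, -0.19 and -0.39 at 2, 4 and 8 h, and 7 of the 8 genes were below 0 at 4 h and again at 8 h. The lowest at 8 h were *arg3*, for ornithine carbamoyltransferase, which averaged 2237, 2252, 1707 and 1499 at 0, 2, 4 and 8 h, and *arg5*, for a subunit of the arginine-specific carbamoyl-phosphate synthase, which averaged 7610, 8106, 6050 and 5133. Their log2 ratios at 8 h were -0.58 and -0.57, inside the middle 95% of all features, which reached down to -0.68. *arg7*, for argininosuccinate lyase, was the gene above 0, with 0.28 at 8 h. Ornithine is also where polyamine synthesis starts. Of 4 genes found for that route, 0 were 2-fold or more away at any time, and at 8 h *spe2*, for S-adenosylmethionine decarboxylase, and *srm1*, for spermidine synthase, had log2 ratios of -0.45 and -0.43.

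*uro1* (SPCC1223.09, chromosome III) encodes uricase, which oxidises urate. It averaged 378 normalized reads at 0 h, 1464 at 2 h, 1321 at 4 h and 1370 at 8 h. Its ratios were 3.88-fold, 3.50-fold and 3.63-fold (log2 1.96, 1.81 and 1.86), in places 34, 41 and 49 from the top. Unlike *car1*, *uro1* was at its highest at 2 h. Its later steps were small, -0.15 for 4 h over 2 h and 0.05 for 8 h over 4 h, both inside the middle range.

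Among the 6 genes of the list from purines to urea, *uro1* was the 1 gene at 2-fold or more, at each of the 3 times, and 0 genes were 2-fold or more lower. The hydroxyisourate hydrolase gene *SPCC285.04*, whose product acts just after uricase, averaged 506, 394, 452 and 546, with log2 ratios of -0.36, -0.16 and 0.11. *dal2*, for the allantoicase that acts further down, averaged 517, 583, 674 and 851, with log2 ratios of 0.17, 0.38 and 0.72. *xan1*, for the dioxygenase that makes urate from xanthine, had a log2 ratio of 0.49 at 8 h. *hpt1*, for an enzyme that returns purine bases to nucleotides and so works against the breakdown, had -0.30. The median log2 ratio of the list was 0.10, 0.02 and 0.30.

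*SPBC23G7.13c* (chromosome II) is annotated as a urea transporter of the plasma membrane. It averaged 74.1 normalized reads at 0 h, 249 at 2 h, 72.6 at 4 h and 63.8 at 8 h. Its average at 2 h was 3.35-fold that at 0 h (log2 1.75, place 37 from the top), and the ratios at 4 and 8 h were 0.979 and 0.861 (log2 -0.03 and -0.22). The gene was thus back at its starting level by 4 h. The 4 h average was 3.42-fold lower than that at 2 h (log2 -1.78), far below the middle 95% of that step. Only at 2 h did the gene average 100 or more.

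An antisense RNA, SPNCRNA.1488, lies over 89.9% of *SPBC23G7.13c* in the RefSeq annotation. It averaged 688 at 0 h, 564 at 2 h, 504 at 4 h and 502 at 8 h, with log2 ratios of -0.29, -0.45 and -0.46. The antisense RNA was thus lower at 2 h than at 0 h while the gene was higher. The library kit keeps the strand, but none of the sources used here gives the strand setting of the counting, so the values of this pair of overlapping features are uncertain.

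**Figure D4:**
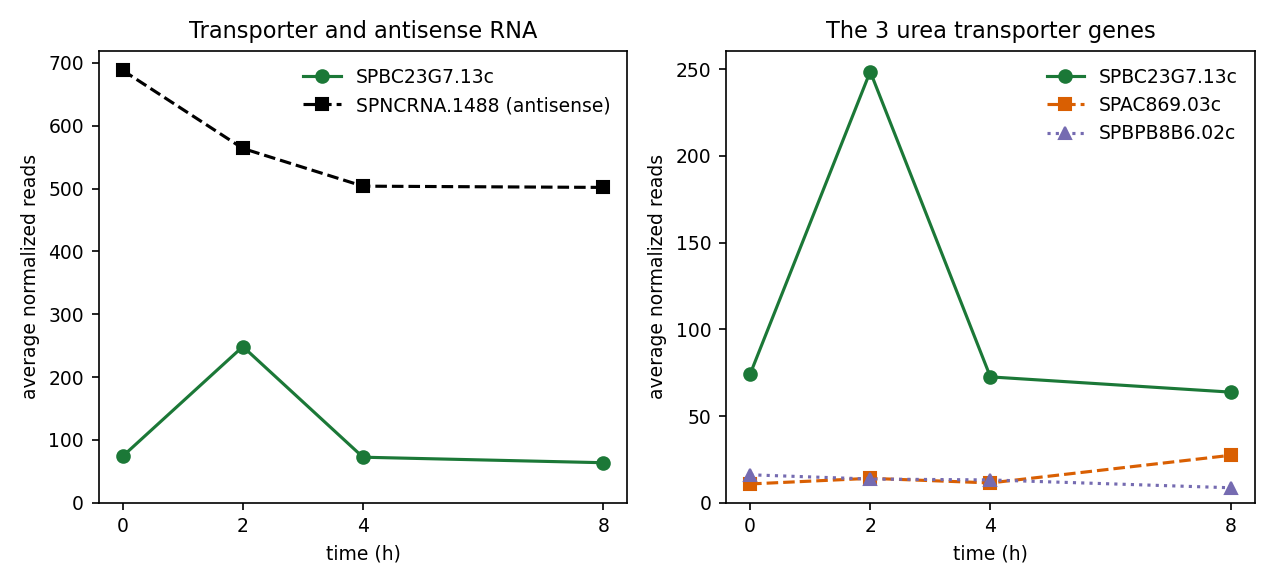
Authors' average normalized reads (linear axes from 0) against hours after transfer. The left panel shows *SPBC23G7.13c* with its antisense RNA, and the right panel shows the 3 genes annotated as urea transporters. The peak of *SPBC23G7.13c* at 2 h, 249 reads, has no counterpart in the other curves.

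The tables hold 3 genes annotated as urea transporters. The other 2 averaged under 100 in every group: *SPAC869.03c* averaged 10.9, 14.1, 11.5 and 27.4 at 0, 2, 4 and 8 h, and *SPBPB8B6.02c* averaged 16.2, 13.7, 13.2 and 8.68. Sharing of reads among the 3 genes was not tested. The urease gene *ure2* averaged 2660, 3088, 3016 and 3143, with log2 ratios of 0.22, 0.18 and 0.24, and did not share the 2 h peak. Of the accessory genes that help to load nickel into urease, *ure6* and *ure7* had log2 ratios of -0.49 and -0.34 at 8 h, and *ure4* had 0.27. In the list for urea and urease, 5 of 7 genes averaged 100 or more, and *SPBC23G7.13c* at 2 h was its 1 case of a 2-fold ratio. The median log2 ratio of those 5 genes was -0.07, -0.03 and -0.22.

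*gdh1* (SPCC622.12c, chromosome III) encodes the NADP-specific glutamate dehydrogenase, which joins ammonium to 2-oxoglutarate. It averaged 13167 at 0 h, 22569 at 2 h, 28082 at 4 h and 36077 at 8 h. Its ratios were 1.71-fold, 2.13-fold and 2.74-fold (log2 0.78, 1.09 and 1.45). The *gdh1* average was higher at each later time than at the time before, with 41.0% of the gain made by 2 h and steps of 0.32 and 0.36 after that. Each of these steps lay inside the middle range of all features for that interval, although the ratios to 0 h did not.

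*gdh2* (SPCC132.04c, chromosome III), for the NAD-dependent enzyme that releases ammonium from glutamate, averaged 1100 at 0 h, 1303 at 2 h, 1103 at 4 h and 963 at 8 h. Its log2 ratios were 0.24, 0.0042 and -0.19, each inside the middle range of all features for that time. From the highest ratio down, *gdh2* was in place 603 of 5373 at 2 h, 2596 of 5358 at 4 h and 4193 of 5378 at 8 h. Only the 4 h ratio was thus near the middle of all features. Per kb of coding length, *gdh1* was 29.4, 42.5, 62.4 and 91.9 times *gdh2* at 0, 2, 4 and 8 h, so the distance between the glutamate dehydrogenase genes was wider at each later time. Most of that widening lay in *gdh1*, since *gdh2* per kb remained between 290.1 and 393.

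*gln1* (SPAC23H4.06, chromosome I) encodes glutamine synthetase, which adds ammonium to glutamate. It averaged 5366 at 0 h, 8055 at 2 h, 8153 at 4 h and 7505 at 8 h. Its log2 ratios were 0.59, 0.60 and 0.48, the last being 1.40-fold, in the upper part of the range of all features but inside it. *glt1*, for the glutamate synthase that uses the glutamine made by Gln1, averaged 11028, 10134, 9404 and 8093, with log2 ratios of -0.12, -0.23 and -0.45. Per kb of coding length, *gln1* was 2.86, 4.67, 5.10 and 5.45 times *glt1* at 0, 2, 4 and 8 h.

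The list for glutamate and ammonium holds 8 genes, with 1 at 2-fold or more above 0 h at each of the 3 times and 0 at 2-fold or more below. At 2 h the gene was *amt1*, for an ammonium transporter, which averaged 1063, 2507, 1862 and 1938 at 0, 2, 4 and 8 h (log2 ratios 1.24, 0.81 and 0.87). At 4 and 8 h it was *gdh1*. A second ammonium transporter gene, *amt2*, had a log2 ratio of -0.51 at 8 h, while *amt3*, for another, had 0.45 at 2 h and 0.02 at 8 h. The median log2 ratio of the list was 0.35, 0.21 and 0.15.

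**Figure D5:**
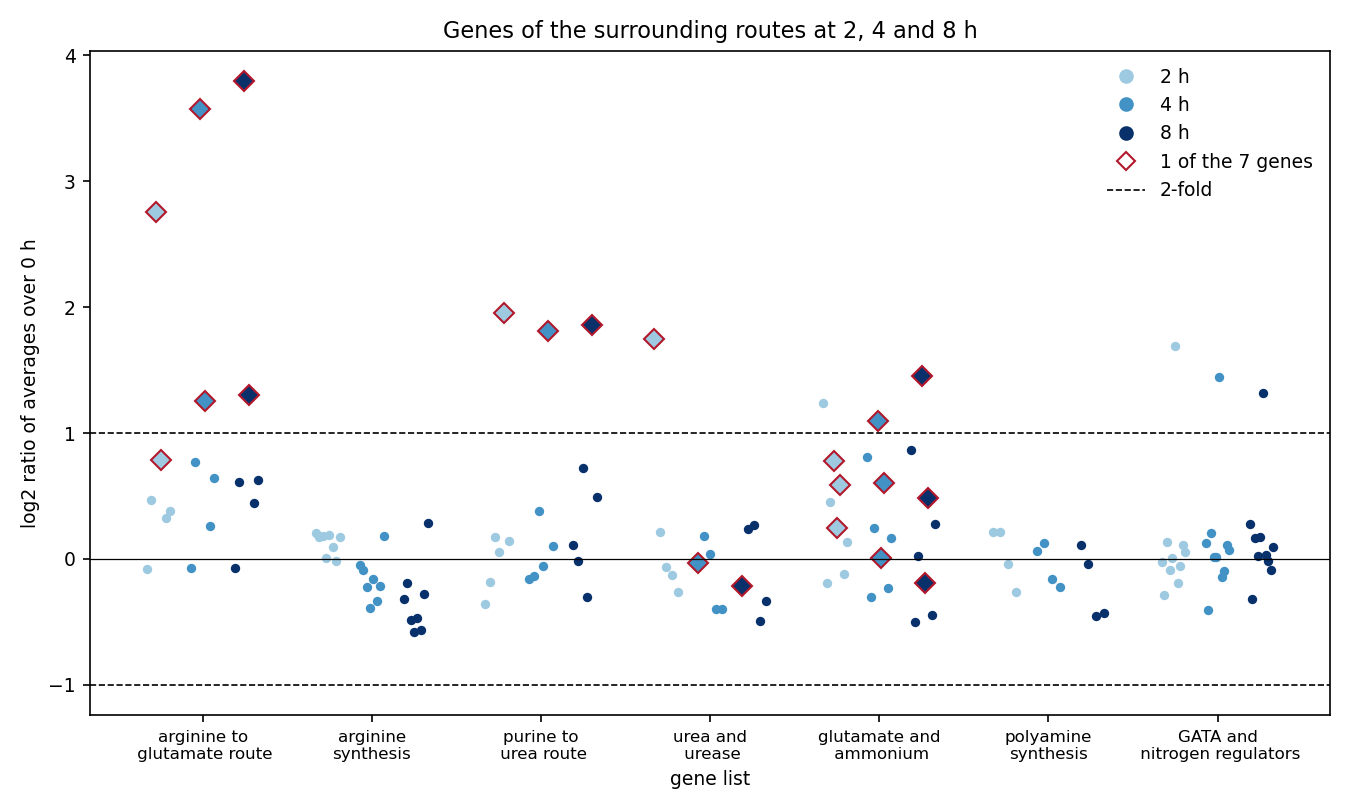
The log2 ratio of averages over 0 h for the genes of 7 lists, with 3 columns of points per list for 2, 4 and 8 h. Diamonds with a red edge mark the genes described here and circles the other genes of each list that averaged 100 or more. Above the upper dashed line (2-fold) the points besides those diamonds are *amt1* at 2 h and *isp7* at each time, and no point lies below the lower one.

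Among 10 genes for GATA factors and nitrogen signalling, 1 was 2-fold or more above 0 h at each time and 0 were 2-fold or more below. This was *isp7*, for an oxygenase of the 2-OG-Fe(II) family, with averages of 1749, 5663, 4750 and 4366 and log2 ratios of 1.70, 1.44 and 1.32. Its course was sustained, like that of *uro1*. *gaf1*, for a GATA-type transcription factor, had log2 ratios of -0.09, 0.02 and 0.02, and the list's median was -0.01, 0.04 and 0.06.

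Levels of different genes can be set side by side only per kb of coding length, which leaves out untranslated regions. At 0 h the order was *car2* at 10457, *gdh1* at 9731, *gln1* at 4982, *car1* at 634, *uro1* at 425, *gdh2* at 332 and *SPBC23G7.13c* at 37.2. At 8 h it was *gdh1* at 26665, *car2* at 25775, *car1* at 8813, *gln1* at 6969, *uro1* at 1543, *gdh2* at 290.1 and *SPBC23G7.13c* at 32.0. The places of *gdh1* and *car2*, and those of *car1* and *gln1*, were thus exchanged. At 4 h *gln1* and *car1* were at 7570 and 7557, close to each other, and without a spread it cannot be said which neighbours in these orders differ beyond it.

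For each gene that reached 2-fold at any time, the 3 genes with the nearest set of log2 ratios at 2, 4 and 8 h were looked up among 4805 coding genes, by Euclidean distance in log2 units. All these ratios share the 0 h libraries. *car1* was nearest to *SPBPB2B2.06c*, annotated as an extracellular 5′-nucleotidase (distance 0.20), followed by the siderophore-iron transporter gene *str1* (0.75) and the zinc transporter gene *zrt1* (0.80). *SPBPB2B2.06c* averaged 29.0, 197, 307 and 375 normalized reads at 0, 2, 4 and 8 h. *uro1* was nearest to transporter genes, namely *bfr1* for an efflux transporter (0.28), *put4* for a proline transporter (0.29) and *per1* for an amino acid transporter (0.33). *put4* averaged 738, 3470, 2504 and 2558, with its highest value at 2 h as in *uro1*.

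The late genes were near each other, by the same ratios that placed them in the late course. *car2* had *gdh1* as its nearest gene (0.22), then *shm1*, for serine hydroxymethyltransferase (0.28), and *SPAC513.07*, of a reductase family (0.29). For *gdh1* the order was *tms1*, for a hexitol dehydrogenase (0.12), *car2* (0.22) and *SPAC637.03*, for a membrane protein (0.23). Among the genes looked up in this way, *SPBC23G7.13c* was the farthest from its nearest gene. Its nearest gene, *mfc1*, for a copper transporter of the prospore membrane, was 0.67 away with averages of 53.4, 125, 67.9 and 52.4, and *dgc1*, for a D-glutamate cyclase, and *SPAC11D3.17*, for a zinc-finger factor, were 0.80 and 1.06 away.

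On the chromosomes, 14 coding neighbours flank the 7 genes in the RefSeq order, 1 on each side. Of these, 2 were 2-fold or more away from 0 h, both above it and at 8 h only. Over all features averaging 100 or more, 2.53% were 2-fold or more higher at 8 h, and the difference between these shares was not tested. *fet4*, for an iron and zinc transporter beside *car1*, averaged 277, 413, 551 and 673 (log2 ratios 0.58, 0.996 and 1.28). *SPCC338.18* beside *gdh2* averaged 59.9, 63.1, 113 and 122, with a log2 ratio of 1.02 at 8 h. On the other side of *car1*, *gor2*, for glyoxylate reductase, had log2 ratios of 0.96, 0.53 and 0.44. The neighbours' log2 ratios ran from -0.59, for *dfr1* beside *uro1* at 2 h, to the 1.28 of *fet4*.

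Some of the genes overlap other annotated features, whose reads could be mixed with theirs. For features of the opposite strand this holds only if strand was not used in counting. *gdh1* overlaps *SPCC622.11*, on the opposite strand, by 94 bases and *tti1*, on the same strand, by 58 bases. These averaged between 544 and 626 and between 310.3 and 384, far below *gdh1*. Counting by strand would not separate *tti1* from *gdh1*. *car2* overlaps a noncoding RNA of the opposite strand, SPNCRNA.1642, by 43 bases, which averaged 91.6, 55.8, 64.0 and 56.1. *gdh2* overlaps *SPCC132.03* by 19 bases. *uro1* overlaps no other feature of that annotation. Apart from the antisense RNA of *SPBC23G7.13c*, the longest overlaps were with noncoding RNAs of the opposite strand. These RNAs are not among the 6988 features with averages. SPNCRNA.4664 lies over 745 bases (57.9%) of *car1*, SPNCRNA.2709 over 935 bases (46.9%) and SPNCRNA.2710 over 580 bases (29.1%) of *gln1*, and SPNCRNA.7361 over 921 bases (44.4%) of *gdh1*. For *gdh2*, SPNCRNA.7322 and SPNCRNA.7323 cover 329 and 229 bases (9.12% and 6.35%). Whether reads of these RNAs are among those counted for the genes was not tested.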

How the data were processed

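RNA-seq reads from 12 libraries were mapped by the authors with HISAT2 2.1.0 to the ASM294v2 assembly, handled with SAMtools and counted over PomBase exons with HTSeq 0.10.0. The 3 deposited tables hold, for 6988 features, the authors' average signal per group, that is counts divided by size factors. They also hold the authors' comparisons of each later time with 0 h from DESeq2 (fold changes, errors and p-values), which were not used here. Values per library, and so depth and spread, were not analysed here.

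Ratios of averages were taken without a pseudocount (Python 3.11.15, numpy 2.4.6, pandas 2.3.3), and a ratio counted at 2-fold or more where the higher group averaged at least 100. The counting was checked on simulated data whose ratios lay well away from 2-fold, so the check does not bear on genes near that threshold. Names, gene order, overlaps and coding lengths (5107 IDs matched, stop codon left out) came from the RefSeq annotation of ASM294v3. No positions are given, since the builds differ.

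The genes and the 7 lists were chosen with earlier results of these data known. Lists were filled by product or by name, and *spe3* was not matched. In each list the rule named the genes at 2-fold or more, up to 4, or otherwise the 2 with the largest ratio. It also named the 3 nearest genes, antisense RNAs and neighbours. Other genes of the lists were named after their values were seen. Alternatives covered scaling, a pseudocount, the fold, the minimum average and the division by length.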

Additional observations from a re-analysis of the deposited data

How the results depend on the processing

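No paired analysis was possible because the tables give group averages and no values per library, and for the same reason leaving out each replicate in turn was not run. Rescaling the groups to an equal sum, or to a median ratio of 1, moved each of the 35 log2 ratios of the 7 genes by less than 0.1 (at most 0.07 and 0.03) and no count of genes at 2-fold or more. Under the equal sum 2 ratios near 0 changed sign, *gdh2* at 4 h over 0 h (-0.05) and *gln1* at 4 h over 2 h (-0.06), so that 5 genes, not 6, were above their 0 h average at 4 h, and under the median scaling 0 did. Adding 10 reads to every average moved 2 ratios by more than 0.1, both of *SPBC23G7.13c* (1.62 at 2 h over 0 h and -1.65 at 4 h over 2 h) and changed no sign. With a fold of 1.5 in place of 2, 6 genes passed at 2 h, 4 had a sustained course, 0 a late one and 2 a transient one. With a fold of 3, 2 genes passed at 4 h and 2 at 8 h, and 0 had a late course. With a minimum average of 500, 0 genes had a transient course, and with no minimum no count moved. Without division by coding length, *gdh2* was in place 4 of the order at 0 h, *car1* in place 5 and *uro1* in place 6. Low averages, such as those of the urea transporter genes, are the least precise.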
